A study of Arabidopsis thaliana with 26 samples.

Results

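The comparison described here is the knockdown of RRP44 added to the *rrp6L2* mutant in *Arabidopsis* rosette leaves, in lines whose exosome core (Exo9) is active. The members are 8 of the 26 libraries of the series, chosen by genotype. The knockdown libraries are *RRP44KD rrp6L2* and *RRP44KD rrp6L2 rrp41* RRP41WT, and the controls are *rrp6L2* and *rrp6L2 rrp41* RRP41WT, with 2 replicates for each genotype. They hold 96250 of 224354 reads, 48880 in the knockdown libraries and 47370 in the controls. All 8 libraries lack RRP6L2 by a T-DNA insertion, so no library shows the knockdown with RRP6L2 present. RRP44 was lowered by an artificial miRNA driven by the mesophyll-specific *CAB3* promoter, so other leaf cells in the sample need not be affected. Transformants were selected by their accumulation of the P-P′ fragment, and no library here measures the RRP44 transcript, so the depth of the knockdown cannot be checked. In the lines named *rrp41* RRP41WT, a tagged wild-type RRP41 under its own promoter replaces the endogenous protein. RNA was pooled from several plants of a genotype, and replicates were plants grown at different times. All plants are of the Col-0 accession, grown on soil, and for their day length the labels give long days while the study's methods give equal light and dark hours.

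The RNA exosome degrades and trims RNA from the 3′ end. Its core in plants is itself active, through the phosphorolytic subunit RRP41, and it works with the hydrolytic exoribonucleases RRP44, which is processive, and RRP6L2, a nuclear Rrp6-like enzyme. The 5′ external transcribed spacer (5′ ETS) of the rRNA precursor is removed during ribosome assembly. Its excised fragment P-P′ is degraded from the 3′ end by the exosome with the helicase MTR4, which leaves shorter P-P1 intermediates. Nuclear intermediates of this kind can receive short untemplated 3′ tails, mostly adenosines, and in yeast such tails are added by the TRAMP complex and help to feed RNA to the exosome.

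In 3′RACE-seq, RNA 3′ ends are ligated to an adapter, and the ligated 5′ ETS molecules are amplified with a 5′ ETS primer. Each read gives the last nucleotide that matches the 5′ ETS, named by its distance in nt from the first nucleotide of P-P′ (P168, for example), and any nucleotides added after it, called the tail. P161, P168, P176 and P186 are the main intermediates, named in the study from the 3′RACE-seq profiles of libraries of this series. The control libraries held 7371, 9029, 23152 and 7818 reads, and the knockdown libraries 22465, 10843, 11364 and 4208. These are replicates 1 and 2 of the line with endogenous RRP41 followed by replicates 1 and 2 of the RRP41WT line, the order used for all values below. Shares are percentages of all reads of a library, so a share can fall because others rise, and the amount of the RNA per leaf is not known from them. In such bulk samples, fewer cells holding an RNA and less of it per cell cannot be told apart. Between 92.3% and 96.4% of the reads of a library ended from 140 to 200. RNA was selected by size before sequencing, and reads ending from 470 to 481, near the full P-P′ fragment, numbered 0, 0, 1 and 3 in the controls and 0, 22, 0 and 1 in the knockdown libraries.

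The stretch in which most ends lie is shown first, because the neighbouring bases decide how a tail was recorded. In the reference that the authors mapped to, positions 140 to 200 of P-P′ read as follows, with P168 to P177 in capitals.
Reference: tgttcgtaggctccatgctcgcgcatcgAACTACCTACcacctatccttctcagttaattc
In the TAIR10.1 assembly this stretch lies within the rRNA gene repeat at chr3:14197254-14197314 on the plus strand, 362 nt before the annotated start of the rRNA gene AT3G41768, and identical copies lie at chr2:3283-3343 and chr2:7191300-7191360. It is spacer sequence that overlaps no annotated rRNA gene. The ends on which the results turn are shown with their last 20 nt in lower case and the next 2 reference nucleotides in capitals.
P161: ttcgtaggctccatgctcgcGC
P168: gctccatgctcgcgcatcgaAC
P169: ctccatgctcgcgcatcgaaCT
P170: tccatgctcgcgcatcgaacTA
P172: catgctcgcgcatcgaactaCC
P173: atgctcgcgcatcgaactacCT
P174: tgctcgcgcatcgaactaccTA
P176: ctcgcgcatcgaactacctaCC
P177: tcgcgcatcgaactacctacCA
P186: gaactacctaccacctatccTT
Where the next reference base is A, as after P168, an added A cannot be told from an encoded one and is recorded as the next position. None of 27831 tailed reads began with the reference base. Where the second base is A, as after P170, P174 and P177, tails with A as second nucleotide were removed by the authors, and 0 of 14724 tails of 2 nt or more carried the reference base there. After P161, P169, P172, P173, P176 and P186 tails of adenosines can be recorded in full.

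With the knockdown, a larger share of the 3′ ends of 5′ ETS intermediates lay in a window of 8 nt from P168 to P175. Reads ending there made up 19.4, 27.8, 20.1 and 24.3% of the control libraries and 40.1, 43.5, 45.7 and 46.0% of the knockdown libraries. The ranges did not overlap, and the difference of 20.9 percentage points had p = 0.0286 in a two-sided exact permutation test of 4 against 4 libraries (70 relabelings), which is the smallest p this test can give. With labels permuted within replicate number the p was 0.0556, again the smallest possible (36 relabelings), and the same holds for every comparison of knockdown with control below whose groups do not overlap. This window was summed after its values were seen, and within it P168 itself fell. Both of its edges depend on how terminal adenosines are read, as shown for P168 and P176 below.

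In a test of all 56 positions with a mean share of at least 0.1% (limma-voom with Benjamini-Hochberg adjustment), 8 positions rose, which is 14.3% of those tested, and 20 fell, which is 35.7%. The groups did not overlap at 26 positions (46.4%). The 8 that rose were P169 to P175 and P189, so the rise was a nearly unbroken run, and P176 followed it with an adjusted p of 0.0509, or 0.022 with replicate as a block. With replicate as a block, limma-voom called 10 positions higher (17.9%) and 26 lower (46.4%). The total variation distance between the mean profiles, the part of the reads that the 2 mean profiles do not share, was 29.7% (exact permutation test, p = 0.0286). Single knockdown and control libraries lay 24.3 to 38.5% apart, and replicates of 1 genotype 12.3 to 21.6%.

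**Figure D1:**
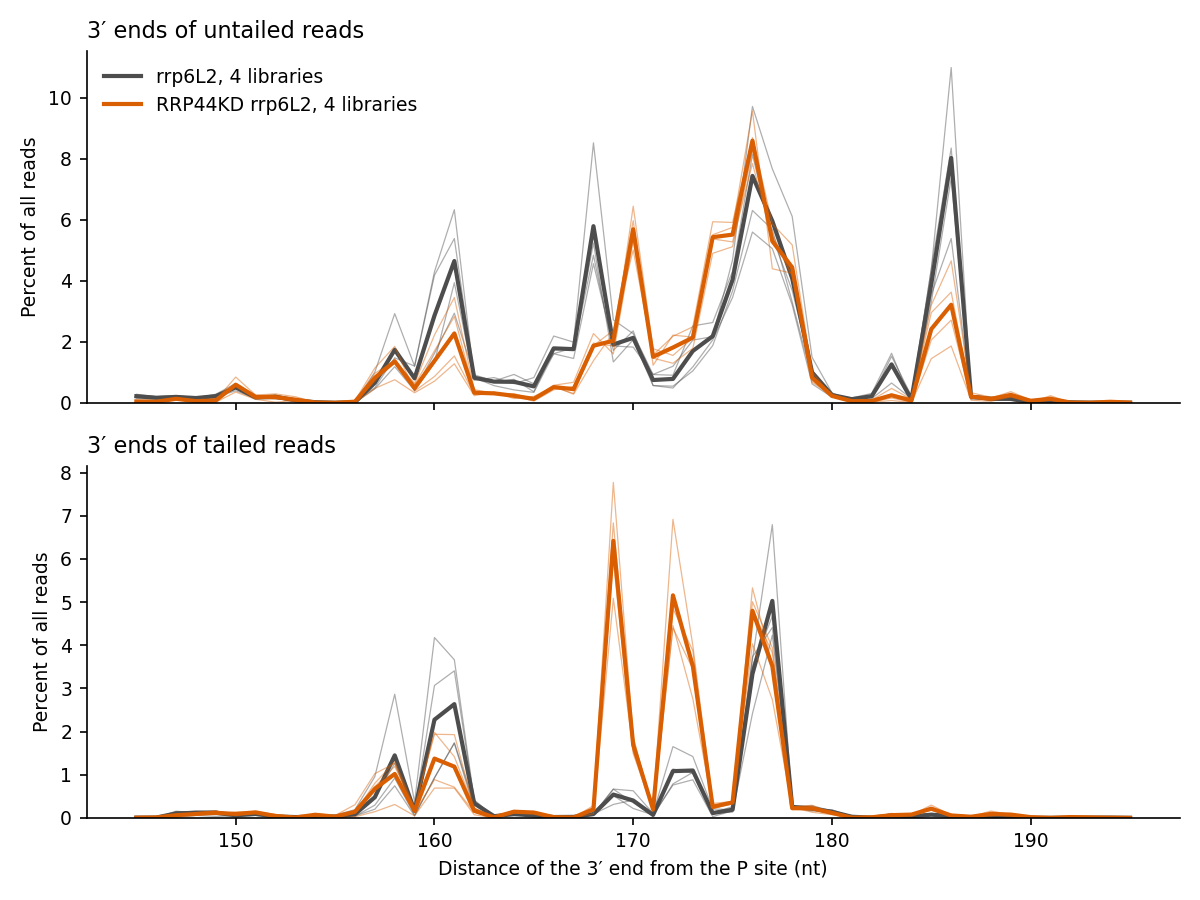
Percent of all reads (vertical) at each 3′ end by its distance from the P site in nt (horizontal), for untailed reads above and tailed reads below, with thick lines for the means and thin lines for the 4 libraries of each group. Tailed knockdown reads peak at P169 and P172, where the control means are 0.539 and 1.08%. Untailed knockdown reads have a peak at P170 (mean 5.69%) and are highest at P176 (8.60%), and P174 (5.43%) lies on the rise to P176.

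P169 had the largest gain in percentage points, 6.002, while P172 had the larger fold. P169 held 2.24, 3.03, 2.01 and 2.53% of control reads and 7.59, 9.14, 9.64 and 7.46% of knockdown reads. Every knockdown library was more than 4 percentage points above every control. The log2 change was 1.84 (SE 0.18, limma-voom adjusted p = 1.48e-05). Almost all of this gain was in tailed reads, which were 0.516, 0.310, 0.665 and 0.665% of control reads and 5.98, 6.83, 7.77 and 5.09% of knockdown reads at P169, an 11.9-fold rise of the mean (adjusted p = 1.87e-06 in the same test). Untailed P169 reads were 1.91% ± 0.583 (SD, n = 4) and 2.04% ± 0.366, with a log2 change of 0.14 (SE 0.26, adjusted p = 0.646). The size of the gain at P169 depends on how terminal adenosines are read, because an RNA that ends at P167 and is adenylated is recorded at P168 or P169. Every terminal A, encoded or added, was removed from untailed reads and reads with pure adenosine tails. Each such read was assigned to the base before it, and reads whose tail held another base were left in place. P169 then held 0.114% of control and 1.55% of knockdown reads, a gain of 1.44 percentage points (adjusted p = 3.01e-06 in limma-voom). All of these carry a tail with a base other than A, and such a tail may also begin at P167. P170 and P171 gained more, 4.85 and 4.89 points.

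P172 behaved like P169, since its gain lay mostly in tailed reads. Its share was 1.25, 1.69, 1.68 and 2.85% in the controls and 5.70, 6.68, 6.41 and 9.10% with the knockdown, 3.73-fold higher. Tailed P172 reads rose from a mean of 1.08 to 5.15% (limma-voom adjusted p = 0.000105) and untailed ones from 0.787 to 1.82% (adjusted p = 0.005). P172 ends in A behind the T at P171, so a P171 end that gained adenosines is recorded at P172. With terminal A removed as for P169, P172 held 0.232% of control and 1.33% of knockdown reads, all with a tail that held a base other than A. This gain was 1.10 percentage points (limma-voom adjusted p = 5.80e-05), and P171, which takes the other reads, gained 4.89 points. At P173 the tailed reads rose from 1.10 to 3.52% (adjusted p = 0.000301), while untailed P173 reads were 1.70 and 2.14% (adjusted p = 0.196).

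P170 and P174 gained mainly untailed reads. P170 was among the steadiest ends in the controls, at 2.58, 2.68, 2.42 and 2.46%, and held 6.82, 7.81, 8.32 and 6.56% of knockdown reads. Untailed P170 reads rose from 2.13 to 5.69% (adjusted p = 9.26e-05, limma-voom). P174 held 2.09, 2.75, 1.98 and 2.38% of control reads and 5.12, 5.78, 5.59 and 6.27% of knockdown reads, and its untailed reads rose from 2.19 to 5.43%. At both ends tails with A second were removed, so their untailed share of the reads is set in part by that filter. P171 and P175 rose 2.09-fold and 1.39-fold, and at both the following reference base is A. For P175 the adjusted p was 0.0172, and it was 0.0876 without the RRP41WT control replicate 1, 0.0571 without replicate 2 of *RRP44KD rrp6L2* and 0.055 without replicate 2 of the RRP41WT knockdown line.

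**Figure D2:**
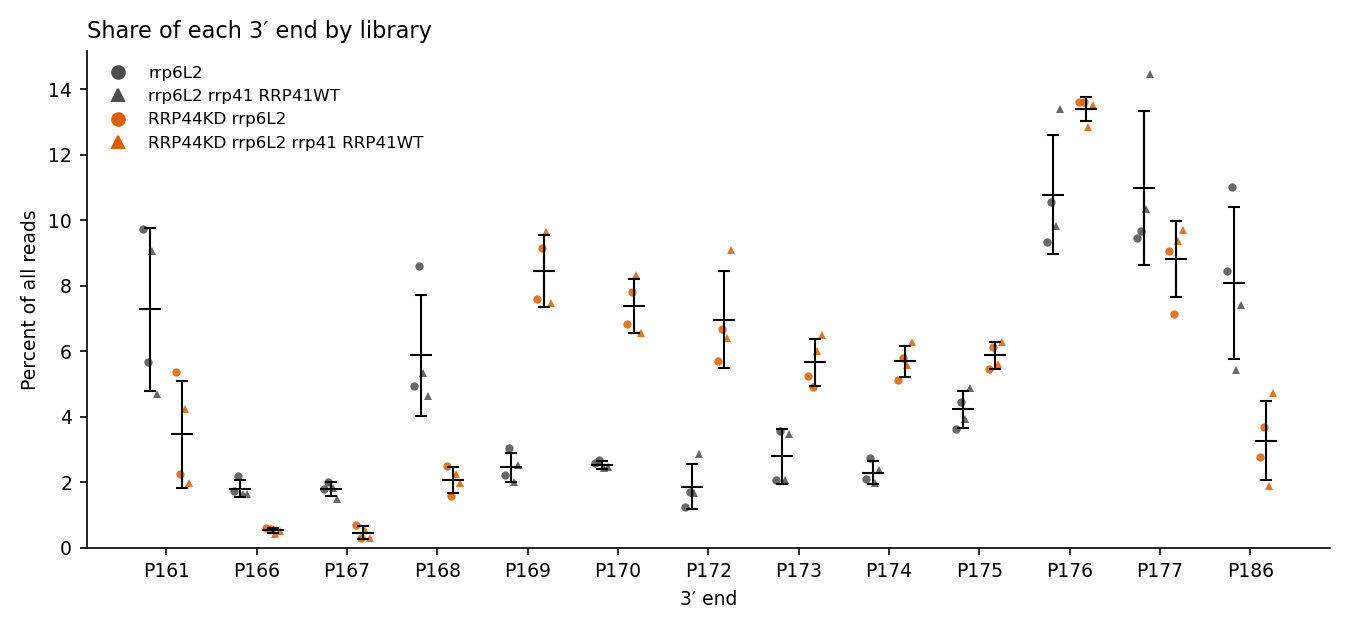
Percent of all reads (vertical) for 13 named 3′ ends (horizontal), with a point for each library and bars for the mean and SD of 4 libraries. P169, P170, P172, P173, P174 and P175 lie higher and P166, P167, P168 and P186 lower in all 4 knockdown libraries, while P161, P176 and P177 overlap.

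P168, one of the main intermediates, fell. It held 4.94, 8.62, 5.33 and 4.64% of control reads and 2.50, 1.57, 2.24 and 1.97% of knockdown reads, 0.352 times the control mean (exact permutation test, p = 0.0286; limma-voom adjusted p = 0.000536). This loss depends on how terminal adenosines are read as well, since P168 and P169 both end in A behind the G at P167. When terminal A was removed as described for P169, the end P167, which then takes reads from both, held 8.82, 13.5, 8.92 and 8.48% of control reads and 9.16, 9.07, 10.3 and 8.46% of knockdown reads. The difference of the means was −0.684 percentage points, the groups overlapped, and the exact permutation test gave p = 0.857. Counted this way, reads at P171 still rose from 2.46 to 7.35% (p = 0.0286 in the same exact test), and so did those at P170, P173 and P174.

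The ends just before the window fell together. Of the 5 positions from P163 to P167 all 5 fell, against 35.7% of all positions tested, and their sum was 5.55, 6.68, 4.99 and 5.59% in the controls and 2.28, 1.84, 1.85 and 1.83% with the knockdown. P166 fell to 0.296 times (limma-voom adjusted p = 6.36e-05) and P167 to 0.258 times the control mean (adjusted p = 0.000149). The fall at P167, and its part of the sum, depend on how terminal adenosines are read. With terminal A removed, P167 held 9.92% of control and 9.24% of knockdown reads (limma-voom adjusted p = 0.759). P162 fell to 0.429 times. P161, the shortest main intermediate, was 9.74, 5.67, 9.05 and 4.68% against 5.38, 2.25, 4.25 and 1.97%. Replicate 1 was higher than replicate 2 in all 4 genotypes, and the groups overlapped. The exact permutation test gave p = 0.0571 and limma-voom an adjusted p of 0.0233, which became 5.00e-05 with replicate as a block. Without the RRP41WT control replicate 1 or without replicate 2 of *RRP44KD rrp6L2* the adjusted p for the P161 change was 0.0918 and 0.0571.

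P186, the longest main intermediate, also fell, from 8.44, 11.01, 5.44 and 7.41% to 2.76, 3.70, 1.90 and 4.73%. This is 0.405 times the control mean, and it passed both tests (exact permutation p = 0.0286; limma-voom adjusted p = 0.00224). The highest knockdown library, at 4.73%, lay close below the lowest control, at 5.44%. The small shoulder at P183 fell to 0.237 times, from 1.68, 1.56, 1.34 and 0.678% to 0.214, 0.387, 0.150 and 0.499%. P185 fell to 0.661 times in limma-voom (adjusted p = 0.0279), though its libraries overlapped, and the call was lost without either replicate of *rrp6L2* or without replicate 1 of either knockdown line (adjusted p up to 0.101). P189, beyond the main intermediates, rose from 0.095, 0.199, 0.0993 and 0.166% to 0.334, 0.443, 0.290 and 0.285% (adjusted p = 0.00224 in the same test).

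P176 was the largest single end of the knockdown group, and in the controls it and P177 were the largest, with means of 10.8 and 10.99%. P176 held 9.33, 10.6, 9.83 and 13.4% of control reads and 13.6, 13.6, 12.9 and 13.5% of knockdown reads. The second RRP41WT control lay within the knockdown range, and the exact permutation test gave p = 0.0571. In limma-voom the log2 change at P176 was 0.33 (SE 0.13, adjusted p = 0.0509), and with replicate as a block it was 0.34 and passed (adjusted p = 0.022). P176 ends in A behind the T at P175, so a P175 end that gained adenosines is recorded at P176. With terminal A removed, P176 held 1.61% of control and 1.86% of knockdown reads (limma-voom adjusted p = 0.457), all with a tail that held a base other than A. P175, which takes the other reads, then held 13.4 and 17.4%, with overlapping libraries (adjusted p = 0.0414 in the same test). Untailed P176 reads were 7.44 and 8.60% of all reads and overlapped (limma-voom adjusted p = 0.267). Only when divided by the untailed reads, a total that was itself smaller with the knockdown, was P176 3.50 percentage points higher with an exact permutation p of 0.0286. Its neighbour P177 was 10.99% ± 2.35 (SD, n = 4) and 8.82% ± 1.15 (exact permutation p = 0.0857), and the sum of both ends was 21.8 and 22.2%.

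All reads were also divided into 11 regions, so that a shift by 1 nt within a region does not count. Ends from P168 to P170 rose from 10.9 to 17.9% and those from P171 to P175 from 12.01 to 25.9%. Ends from P163 to P167 fell from 5.70 to 1.95%, those from P185 to P187 from 12.3 to 6.14%, and those from P22 to P139, the shortest products, from 4.48 to 2.71%. These 5 regions had p = 0.0286 in the exact permutation test and an adjusted p of 0.0629, so none of the 11 passed after adjustment (0% called), and 5 is too few at the smallest p for any to pass. The other 6 overlapped between groups, among them ends from P188 to P482, with 2.72% ± 0.753 and 2.69% ± 1.09 (SD, n = 4).

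The share of tailed reads was higher with the knockdown. Reads with at least 1 added nucleotide were 22.2, 15.2, 27.3 and 22.1% of control reads and 34.4, 31.8, 37.5 and 31.8% of knockdown reads. Single added nucleotides can be sequence differences, so tails of 2 nt or more were counted alone, and they were 10.3, 5.50, 14.4 and 8.10% against 19.7, 17.4, 21.5 and 17.8%. The rises of 12.2 and 9.53 percentage points each had an exact permutation p of 0.0286. Replicate 2 of *rrp6L2* had the fewest tails and replicate 1 of *rrp6L2 rrp41* RRP41WT the most among the controls, and the latter was still below every knockdown library.

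The window from P168 to P175, set after its values were seen, gained tails as well as ends. Tailed reads ending from P168 to P175 were 2.73, 2.93, 3.68 and 4.94% of all control reads and 16.3, 16.9, 19.3 and 18.6% of all knockdown reads, a rise of 14.2 percentage points. Tailed reads ending anywhere else were 18.1% ± 4.74 and 16.1% ± 2.45 (SD, n = 4) and overlapped (exact permutation p = 0.514). This sum holds changes in both directions. Tailed P176 rose from 3.33 to 4.80% and tailed P185 from 0.0729 to 0.213%, while tailed P177 went from 5.03 to 3.51% and tailed P161 from 2.63 to 1.19%. Of all tailed reads, 12.3 to 22.3% ended in the window in the controls and 47.3 to 58.4% with the knockdown. In the controls the largest part of the tailed reads, 39.5%, ended at P176 and P177, and with the knockdown 24.5% did. The part ending at P161 and P162 went from 13.5 to 3.92%.

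**Figure D3:**
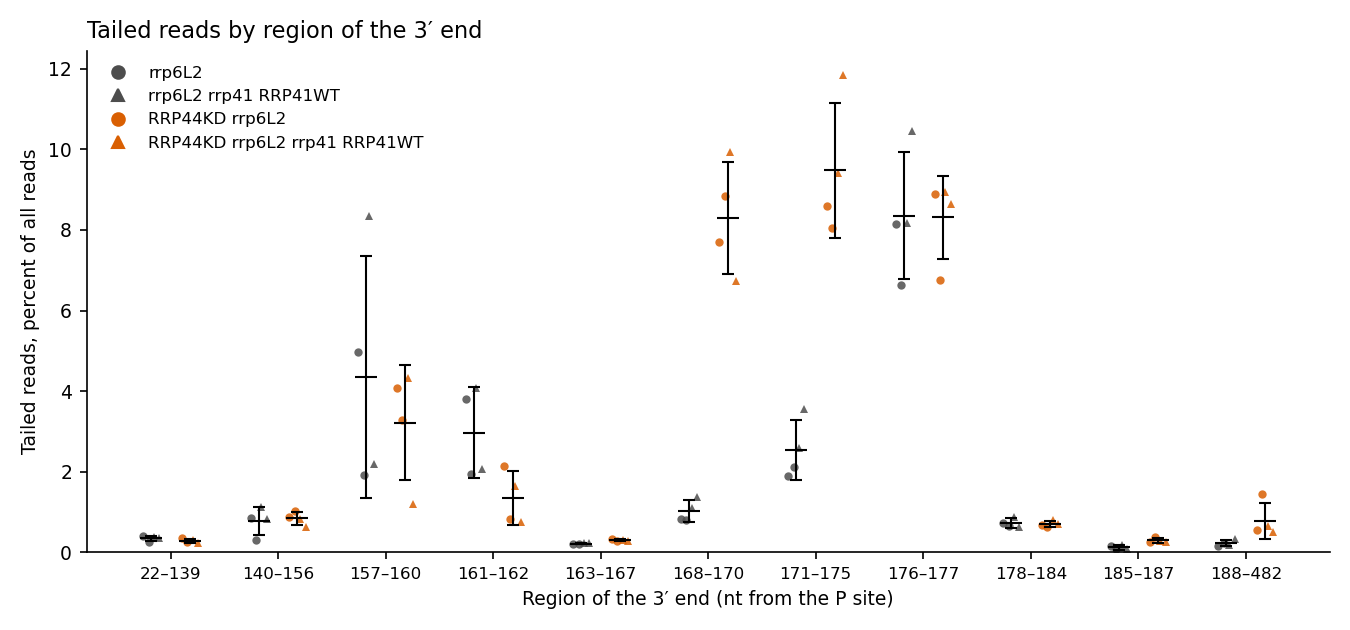
Tailed reads as percent of all reads (vertical) in 11 regions of the 3′ end (horizontal, nt from the P site), with a point for each library and bars for the mean and SD of 4 libraries. The regions P168 to P170 and P171 to P175 rise from 1.03 and 2.54% to 8.30 and 9.48%. The region P176 to P177 has 8.36% in the controls and 8.31% with the knockdown.

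In a test of the tailed reads by position, 10 of 26 positions rose (38.5%) and 1 fell (3.85%, limma-voom). Besides P169, P172 and P173, those that rose were P168, P170, P171, P174, P175, P176 and P185, and the one that fell was P161. Tailed P176 rose 1.44-fold, from 3.73, 2.41, 3.52 and 3.67% to 5.33, 4.03, 5.01 and 4.82% (adjusted p = 0.0397). This P176 call was lost without replicate 2 of *rrp6L2*, replicate 1 of *RRP44KD rrp6L2*, replicate 1 of the RRP41WT controls or either replicate of the RRP41WT knockdown line (adjusted p up to 0.114). Tailed P175 (limma-voom adjusted p = 0.0303) lost its call without replicate 2 of *rrp6L2* or any 1 of the knockdown libraries, with adjusted p up to 0.114. Tailed P161 fell from 2.63 to 1.19% (adjusted p = 0.0365), with overlapping libraries, and this call was lost without replicate 1 of the RRP41WT controls, replicate 2 of *RRP44KD rrp6L2* or either replicate of the RRP41WT knockdown line (adjusted p up to 0.172) and with RRP41 source as a covariate. Tailed P168 (adjusted p = 0.0154) lost its call without replicate 2 of *rrp6L2*, replicate 1 of the RRP41WT controls, replicate 2 of *RRP44KD rrp6L2* or replicate 1 of the RRP41WT knockdown line (adjusted p up to 0.126). Tailed P174 (adjusted p = 0.0265) lost it without replicate 2 of *rrp6L2*, replicate 1 of the RRP41WT controls, or replicate 2 of either knockdown line (adjusted p up to 0.0925). So 4 of the 10 positions that rose lost the call in at least 1 such fit, and P169, P170, P171, P172, P173 and P185 kept their call with each library left out. Among untailed reads, 6 of 50 positions rose (12%) and 21 fell (42%). Of these 27 calls, 12 were lost in at least 1 fit with a library left out, and so were 9 of the 28 calls in all ends.

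At a given end, the percentage of reads that carry a tail changed at some ends and not at others. At P169 it was 23.0, 10.2, 33.1 and 26.3% in the controls and 78.8, 74.8, 80.6 and 68.2% with the knockdown, so P169 went from a mostly untailed to a mostly tailed end. An untailed P169 read can also be an RNA that ended at P168 and received a single A, since that A matches the reference. At P173 it rose from 40.6 to 62.0%, and P172 was 58.1% ± 8.76 and 73.9% ± 4.83 (SD, n = 4) with 1 control above the lowest knockdown library. At P168 it rose from 1.56 to 9.55%, at P164 from 11.97 to 38.8% and at P185 from 1.85 to 8.54%, all with few tailed reads. At P161 it was 35.8 and 33.9%, and at P176 31.5 and 35.9%, with overlapping libraries (exact permutation p = 0.429 and 0.371). At P177 it fell from 45.6 to 39.8%, and there almost only single nucleotides can be recorded. Of the few reads that end from P188 to P482, 5.50 to 12.3% were tailed in the controls and 19.4 to 33.8% with the knockdown. P186 was hardly tailed, with 0.101 to 0.965% in the controls and 1.51 to 1.85% with the knockdown. Of 20 named ends, 7 had an exact permutation p of 0.0286, and 0 passed after adjustment (0% called, lowest adjusted p 0.0816).

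**Figure D4:**
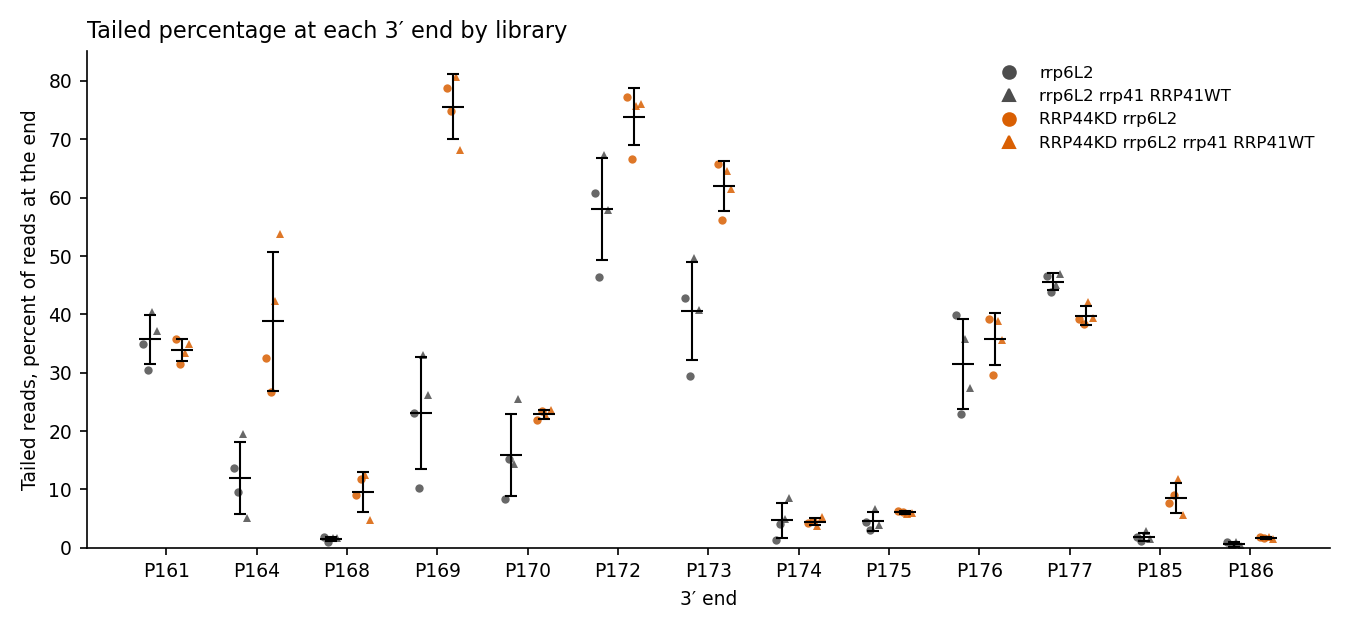
Tailed reads as percent of the reads at each of 13 named ends (vertical), with a point for each library and bars for the mean and SD of 4 libraries. At P169 the libraries lie between 10.2 and 33.1% in the controls and between 68.2 and 80.6% with the knockdown, and P161, P170, P172, P174, P175 and P176 overlap.

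The most frequent tails at the ends that gained them were adenosines. They are shown with the last 20 nt of the end in lower case and the tail in capitals, each followed below by the most frequent tail of mixed composition at that end in the knockdown libraries.
P169 with AA: ctccatgctcgcgcatcgaaAA
P169 mixed: ctccatgctcgcgcatcgaaAG
P172 with AAA: catgctcgcgcatcgaactaAAA
P172 mixed: catgctcgcgcatcgaactaAAAG
P173 with AA: atgctcgcgcatcgaactacAA
P173 mixed: atgctcgcgcatcgaactacGA
P176 with AA: ctcgcgcatcgaactacctaAA
P176 mixed: ctcgcgcatcgaactacctaGA
Of tails of 2 nt or more in the knockdown libraries, the pure adenosine tail shown had 314 of 2395 reads at P169, 313 of 1979 at P172, 212 of 780 at P173 and 229 of 1324 at P176. The mixed tail had 18, 15, 28 and 46 of these reads. In the pooled reads of the knockdown libraries, 69.6% of such tails at P169, 71.7% at P172, 74.0% at P173 and 62.0% at P176 were adenosine throughout, and in the controls 76.7, 79.4, 76.0 and 51.9%.

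By composition, single A reads rose from 8.88 to 11.8% of all reads, pure adenosine tails of 2 to 5 nt from 2.96 to 7.13% and mixed tails from 3.95 to 6.99%. Pure adenosine tails of 2 to 5 nt were 2.74, 1.88, 4.004 and 3.21% in the controls and 7.47, 6.71, 7.41 and 6.92% with the knockdown. Each of the 3 classes had an exact permutation p of 0.0286 and an adjusted p of 0.0571 over 6 classes, so none passed (0% called). Longer pure adenosine tails, of 6 to 30 nt, were 2.32% ± 1.51 and 4.70% ± 1.05 (SD, n = 4) and overlapped. Single nucleotides other than A, 3.23 and 3.03%, and tails of 2 nt or more with no A, 0.336 and 0.271%, overlapped as well.

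Within tails of 2 nt or more, adenosine made up 90.6, 83.4, 92.2 and 88.8% of the nucleotides in the controls and 92.6, 91.3, 92.7 and 91.6% with the knockdown (exact permutation p = 0.0857). The share of T fell from 4.71 to 2.36% and that of C from 1.83 to 0.687% (p = 0.0286 for each in the exact test), and G was 4.74 and 4.90%. The part of these tails that is adenosine throughout was 54.3% ± 4.42 and 61.9% ± 1.37 (SD, n = 4), without overlap.

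Tail length differed at single ends more than in the whole. Over all tails of 2 to 30 nt, the library means were 7.42, 5.33, 8.25 and 6.35 nt in the controls and 7.35, 6.81, 7.65 and 7.10 nt with the knockdown (exact permutation p = 0.6). At P176 the mean length was 4.58, 3.40, 4.70 and 4.38 nt in the controls and 5.59, 6.63, 6.35 and 6.04 nt with the knockdown, 1.89 nt longer. At P169 it was 6.53 and 8.00 nt and at P172 5.33 and 6.53 nt, and at these 3 ends the libraries did not overlap. At P160, P161 and P173 they did. These 6 ends are those with at least 10 such tails in each library at which adenosine tails can be recorded, a comparison added after values were seen, and none passed after adjustment over the 6 (lowest adjusted p 0.0571, exact permutation test). In bins of length, tails of 3 to 5 nt rose most, from 2.86 to 6.31% of all reads, and those of 6 to 9 nt rose from 1.90 to 4.48% (adjusted p = 0.0429 for each over 6 bins, exact permutation test, 66.7% called). Tails of 10 to 14 nt and of 15 to 30 nt overlapped between groups.

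**Figure D5:**
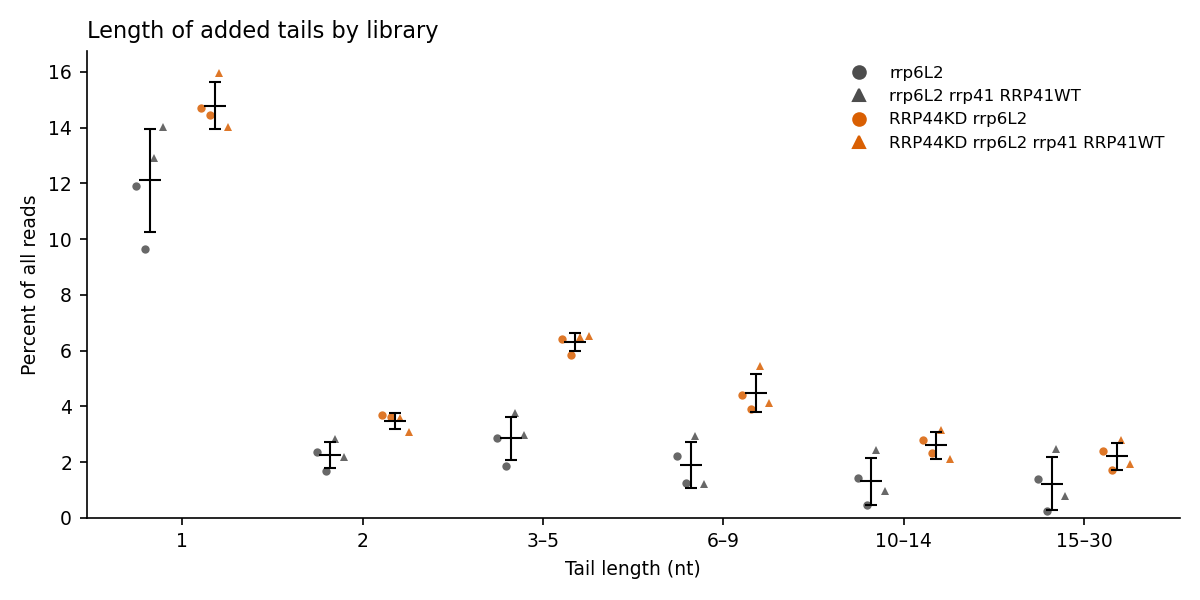
Percent of all reads (vertical) with a tail of each length in nt (horizontal), with a point for each library and bars for the mean and SD of 4 libraries. Tails of 1, 2, 3 to 5 and 6 to 9 nt are more frequent in all 4 knockdown libraries, and longer tails overlap.

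The last base of an untailed end is fixed by its position, so the shares of the bases regroup the position shares above and are not separate support for them. Untailed ends in G fell from 10.3 to 5.18%, while those in C rose from 50.7 to 54.0% and those in T from 12.8 to 15.6% (adjusted p = 0.0381 for each over 4 bases, exact permutation test, 75% called). No base passed with labels permuted within replicate number or within RRP41 source, where the smallest possible p is too large, nor after thinning to the smallest library, and with a single library left out 3 passed without replicate 2 of *rrp6L2* or replicate 2 of the RRP41WT controls and 0 without any of the other 6. Untailed ends in A were 26.1 and 25.3%. Ends in C went both ways. Untailed P170 and P174 changed by 3.56 and 3.25 percentage points, and P186, P161, P185 and P166 by −4.81, −2.37, −1.49 and −1.27. Among the ends in G, P160, P167 and P162 changed by −1.48, −1.31 and −0.491 points. The libraries overlapped at P160 and P161.

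The base at P137 differs between reads, T in the reference and C in others, and the rRNA repeat is known to hold variants. The T137C share of reads ending from P157 to P200 was 34.4, 40.6, 43.1 and 34.4% in the controls and 47.0, 41.5, 47.6 and 43.0% with the knockdown (exact permutation p = 0.0857). Over reads with the reference base alone, 8 of 58 positions rose (13.8%) and 18 fell (31%) in limma-voom. For untailed ends 6 of 56 positions rose and 21 fell, and for tailed ends 7 of 26 rose and 1 fell. Of the 28, 27 and 11 calls made with all reads for all, untailed and tailed ends, 25, 27 and 8 were kept. These fits also hold fewer reads, so the part of the base difference itself in the lost calls was not tested.

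The 2 RRP41 sources were treated as 1 group. No position passed the test of a different knockdown effect with endogenous RRP41 and with RRP41WT (0 of 56, 50 and 26 positions for all, untailed and tailed ends, limma-voom), and 0, 1 and 1 positions had an unadjusted p below 0.05. The rise at P169 was 5.73 percentage points with endogenous RRP41 and 6.28 with RRP41WT, and that of tailed reads 14.5 and 9.93. The same knockdown was set against *rrp6L2* with inactive Exo9 (RRP41Pi-Cat-, 2 and 2 libraries). The effect differed by Exo9 state at P176 in all ends, 1 of 53 positions (1.89%, interaction log2 1.75, SE 0.40, limma-voom adjusted p = 0.0429), where P176 was 1.06 and 2.06% in the inactive controls and 4.27 and 7.11% with the knockdown. In untailed and in tailed ends alone, 0 of 47 and 0 of 25 positions passed, with limma-voom adjusted p of 0.0867 and 0.0864 at P176. P169 was 4.37 and 6.004% in those controls and 12.6 and 12.98% with the knockdown, a rise beside that with active Exo9 that did not pass as different.

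Other lines with active Exo9 were set beside the knockdown libraries. The Col-0 background libraries are the replicates of Col-0 and of *rrp41* RRP41WT, and the *mtr4* libraries those of *mtr4* and of *mtr4 rrp41* RRP41WT. The study lists fewer reads for replicate 2 of Col-0 and of *rrp41* RRP41WT than for any library of the comparison. Ends from P168 to P170 together were 16.3 to 24.5% in 4 Col-0 background libraries, which overlapped the 16.0 to 20.2% of the knockdown libraries (difference −1.45 percentage points, exact permutation p = 0.571), and 7.46 to 10.8% in 4 *mtr4* libraries. Ends from P171 to P175 were 6.01 to 8.996% and 7.06 to 9.02%, below the 23.2 to 29.97% of the knockdown libraries. P169 was 2.09 to 5.17% in the Col-0 background and 2.48 to 4.31% in *mtr4*, below the lowest knockdown library at 7.46%. P172 was 0.364 to 1.16% and 0.729 to 0.988%, and P170 2.88 to 3.56% and 2.87 to 3.90%. The exact permutation test gave p = 0.0286 for P169, P170, P172 and the ends from P171 to P175, each against the knockdown libraries (adjusted p = 0.034 over 44 comparisons). These ends were picked with their values in the same knockdown libraries known, so this test is not separate support for them. The adjusted p also depends on which measures were put into the 44 comparisons. P169 was tailed to 3.05 to 4.41% in the Col-0 background and 26.4 to 31.8% in *mtr4*, against 68.2 to 80.6% in the knockdown libraries. For P161, P168, P176 and P186 the difference between knockdown and *mtr4* libraries did not pass this exact permutation test, with adjusted p of 0.132, 0.161, 0.189 and 0.307. P186 was 3.01 to 5.62% in *mtr4* and P168 2.11 to 2.86%.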

How the data were processed

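3′RACE-seq reads of the 5′ ETS from rosette leaves of 13 genotypes with 2 replicates were deposited by the authors as 1 table with a line per read, in no normalized unit, and the 8 libraries of the comparison were used. As the study's methods describe, the authors removed duplicates by random nucleotides, mapped read 2 to the rRNA repeat, trimmed unmatched reads 1 nt at a time from the 3′ end up to 30 nt, and recorded the trimmed nucleotides as the tail. They removed tails whose second nucleotide matched the reference. The deposited size value of the tail equalled its length and the last 20 nt before it matched the reference in all 96250 reads.

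Reads per position were counted and tested by limma-voom (limma 3.58.1, R 4.3.3) with all reads as library size, 0.5 reads added before log2 and a mean share of at least 0.1%. For single values, exact permutation tests (two-sided) were run with Python 3.11.15, numpy 2.4.6 and pandas 2.3.3, and matplotlib 3.10.9 drew the plots. The threshold was 0.05. The table holds reads, not counts, so counts were made here. A share of 3 reads was 0.013 to 0.0713% of a library, which covers counting error only. On simulated data the scan recovered 16 of 200 changes of 1.5-fold, 115 of 200 of 2-fold and 198 of 200 of 4-fold. It made 4, 6 and 5 false calls among 920 unchanged positions. Most changes of 1.5-fold would therefore not be called.

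Replicate numbers from the labels mark plants grown at different times. Deviations of same-numbered libraries correlated in all 6 pairs of genotypes (0.533 to 0.746 over 56 positions), so the numbers pair the samples and tests were repeated with the replicate block. P-values measure the spread between these pools of plants.

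Positions named were P161, P166, P168, P169, P170, P176, P177 and P186, and up to 8 per scan and direction with the largest difference among those past the threshold without overlap; others were named after their values were seen. Members and lists were chosen with earlier results of these data known. Sequences are from the study's mapping reference and were matched to TAIR10.1, which is not the build the authors mapped to.

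Alternatives were added reads of 1 or 2 in limma without weights, no filter or a share of 0.5%, the replicate block, RRP41 source as covariate, each library left out, reads ending from 140 to 200 as total, libraries thinned to 4208 reads, and reads with the reference base at 137.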

Additional observations from a re-analysis of the deposited data

Results flagged for a closer look

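Of 142 groups of 4 libraries, 11 held 1 library far from the other 3, where chance would give about 7.1. In the controls, replicate 2 of *rrp6L2* stood apart with 0.952% at P162, 2.20% at P166 and 14.3% of ends from P168 to P170. Replicate 2 of *rrp6L2 rrp41* RRP41WT had 27.9% of ends at P176 and P177, and in replicate 1 of that line 21.7% of P189 reads were tailed. Among the knockdown libraries, replicate 1 of *RRP44KD rrp6L2* stood apart with 3.25% of ends from P22 to P139, 2.28% of ends from P163 to P167 and 0.307% of tails without A. Replicate 2 of that line had 66.7% of P172 reads tailed. In *RRP44KD rrp6L2 rrp41* RRP41WT, replicate 1 had 12.9% at P176 and replicate 2 had 2.47% of single added nucleotides other than A. The knockdown effect at P176 differed between active and inactive Exo9 in all ends (interaction log2 1.75, adjusted p = 0.0429 in limma-voom), but not in untailed or tailed ends alone.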

How the results depend on the processing

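Counts over positions are limited by depth and filter. With a share of at least 0.5%, 11 positions fell in all ends and 10 in untailed ends, and 5 rose in tailed ends. Thinning left 13 lower untailed positions. The count of lower tailed positions was 2 with 1 or 2 added reads, 4 with the replicate block, 0 with RRP41 source as covariate, 3 with reads from 140 to 200 as total and 2 after thinning. With a library left out, all ends gave 7 to 9 higher and 15 to 22 lower, untailed ends 4 to 8 and 15 to 23, and tailed ends 6 to 10 and 0 to 2. The replicate block, and labels permuted within RRP41 source, gave exact permutation p = 0.0556 for P168 (−3.81 points), P186 (−4.80), tailed reads of 1 nt or more (12.2) and 2 nt or more (9.53) and the profile distance (29.7), because no smaller p is possible, and for every other single value whose groups did not overlap. P176 passed with the replicate block in limma-voom (0.34 on the log2 scale, adjusted p = 0.022). Terminal base shares passed at 0 bases under both and after thinning, alternatives chosen after seeing the data.

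P168 lost its difference when terminal A was removed (−0.684) and turned when neighbours within 1 nt were added (0.867). P176 passed as a share of untailed reads (3.50) but not in the test of untailed reads as a share of all reads (adjusted p = 0.267). With a library left out, P161 ranged from −4.69 to −3.00, P168 from −4.22 to −2.90, P176 from 2.14 to 3.49, P186 from −5.68 to −3.82, tailed reads from 10.04 to 14.1 and from 8.18 to 11.1, tail length from −0.111 to 0.860 nt (below 0 without replicate 2 of *rrp6L2*), adenosine share from 1.53 to 4.48, T137C from 5.41 to 8.30, tail classes passing from 0 to 4 and terminal bases from 0 to 3. The direction of values that had not passed also turned with a library left out, from −0.10 to 0.31 on the log2 scale for untailed P169, from −0.541 to 2.48 points for ends at P176 and P177, from −0.554 to 0.231 for ends from P188 to P482 and from −0.484 to 0.0523 for single nucleotides other than A. The cause of these changes was not tested.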
